A study of Homo sapiens with 16 samples.

Results

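The activator protein 1 (AP-1) and immediate early factors examined here were 10 genes, FOS, FOSB, FOSL1, FOSL2, JUN, JUNB, JUND, ATF3, KLF6 and EGR1, out of 22411 genes with a value on the arrays. They were taken by name, and each had 1 probe set that carried a single gene symbol. The arrays were made from A498, a cell line of human clear cell renal carcinoma, in which doxycycline switched on short hairpins to DGAT1 and DGAT2, the acyltransferases of the last step of triglyceride synthesis. The 4 groups, of 4 arrays each, were vehicle normoxia, vehicle hypoxia, doxycycline normoxia and doxycycline hypoxia. All groups carried both hairpins and were kept in low serum. Vehicle or doxycycline was given for 5 days, followed by 2 days in normoxia or in hypoxia at 0.5% oxygen. No group with a control hairpin was analysed here, so an effect of doxycycline itself and the loss of DGAT1 and DGAT2 cannot be told apart here. The titles number the arrays of a group as biological replicates, but do not say whether they came from separate cultures, and p-values measure the spread between these arrays of 1 cell line.

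AP-1 is a dimer of basic leucine zipper proteins that binds a short DNA element in promoters and enhancers. FOS proteins typically bind with a JUN partner, JUN proteins can also pair with each other, and ATF3 is a stress-induced member of the related ATF/CREB family. FOS, FOSB, JUN, JUNB, EGR1, ATF3 and KLF6 are immediate early genes, whose transcription rises soon after a stimulus without new protein synthesis, often through MAP kinases and the serum response factor SRF, which binds CArG boxes. EGR1 and KLF6 are zinc finger factors that bind GC-rich DNA and are not part of the AP-1 dimer.

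In these cells 3 of the 10 genes passed the test in at least 1 of 4 comparisons. The matching share of all genes over the 4 comparisons was not computed, so this count is not read as a result about the set. Of the 10, 0 were called with doxycycline in normoxia and 1 in hypoxia, against 9.08% and 4.66% of all 22411 genes, and 2 were called in hypoxia with vehicle and 2 with doxycycline, against 6.91% and 3.98%. KLF6 was 1.68-fold higher in hypoxia with vehicle and 1.69-fold higher with doxycycline. EGR1 was 1.30-fold lower in hypoxia with vehicle, at a level below the median gene level of 4.89. ATF3 was 1.4-fold higher in hypoxia with doxycycline, and 1.31-fold higher with doxycycline in hypoxia, a call that held in 19 of 27 alternatives. No FOS or JUN family gene passed the test in any comparison.

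Promoter windows are shown for the 3 genes that passed the test, because these are the members the results turn on. The sequences are as RefSeq gives them on the GRCh38.p14 build, 5′ to 3′ on the strand of the gene. Each holds the 250 bases before an annotated start. Capitals mark matches to any motif searched. RefSeq windows were found for 9 of the 10 genes, all but FOSL1, with 10 windows in all because ATF3 had 2, and the first of these is shown. Which start of ATF3 was used in these cells was not tested. KLF6 lies on the minus strand of chr10:3785210-3785459, ATF3 on the plus strand of chr1:212565157-212565406, and EGR1 on the plus strand of chr5:138465229-138465478.
KLF6: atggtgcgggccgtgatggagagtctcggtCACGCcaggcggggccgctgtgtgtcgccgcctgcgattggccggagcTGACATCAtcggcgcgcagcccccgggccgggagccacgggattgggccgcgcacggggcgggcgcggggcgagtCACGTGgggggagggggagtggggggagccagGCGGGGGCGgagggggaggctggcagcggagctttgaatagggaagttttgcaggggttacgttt
ATF3: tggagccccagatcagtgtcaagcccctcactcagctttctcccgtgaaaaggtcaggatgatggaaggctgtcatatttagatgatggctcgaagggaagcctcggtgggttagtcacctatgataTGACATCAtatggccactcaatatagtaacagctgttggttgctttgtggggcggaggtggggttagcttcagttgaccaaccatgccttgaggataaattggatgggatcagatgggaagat
EGR1: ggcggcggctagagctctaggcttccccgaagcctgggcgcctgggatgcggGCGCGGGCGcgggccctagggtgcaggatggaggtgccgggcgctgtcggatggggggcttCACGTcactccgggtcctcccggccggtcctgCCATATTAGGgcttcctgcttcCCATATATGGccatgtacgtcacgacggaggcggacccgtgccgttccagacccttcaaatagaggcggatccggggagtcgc

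Motifs were searched on both strands of windows that ran from 250 bases before to 50 bases after the start, and the share of all 35116 RefSeq windows with each motif is given beside it. A match is a description of the letters and not a binding site. An absence holds only for the windows searched, since other starts of a gene and bases further out were not searched. EGR1 held 2 CArG boxes, at positions -105 and -83 from the start, a motif found in 1.29% of all windows and in the windows of 1 of the 9 genes. A CArG box more than 250 bases before a start, in FOS or another gene, would not be counted. The variant of the cyclic AMP response element TGACATCA was found in 3 of the 9 genes, in KLF6 at -172, in ATF3 at -123 and in JUN at -67, against 2.61% of all windows. This variant was added to the search after the sequences had been seen. KLF6 held CACGTG, which reads as ACGTG on both strands (21.4% of windows), the form GCGTG (36.5%) and the EGR site GCGNGGGCG (9.43%), which can overlap GCGTG. EGR1 also held an EGR site and ACGTG. These short forms were not particular to KLF6: ACGTG was found in 3 of the 9 genes (KLF6, EGR1 and FOSL2), GCGTG in 5 (KLF6, JUN, JUNB, FOS and FOSB, with 3 matches in JUNB), and the EGR site in 2. JUND held TGACGTCA (1.85%) and FOSL2 held the AP-1 site TGACTCA (4.95%). The C/EBP-ATF element TTGCATCA (0.866%) and the NF-κB site (5.91%) were found in 0 of the 9 genes. The second ATF3 window held none of these motifs.

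The table's log2 values ran from 1.71 to 19.85. Since a scanner of 16 bits cannot give values above 16, a further unstated step is possible, and folds hold on the deposited scale only. The 2 targeted genes were lower with doxycycline on every array. DGAT1 lay between 6.24 and 6.99 on vehicle arrays and between 5.04 and 5.28 on doxycycline arrays, and DGAT2 between 6.26 and 7.18 and between 5.06 and 5.44. Of 9 renal carcinoma markers measured, 8 lay above the median gene level of 4.89 (PAX8 between 11 and 12.13) and KRT19 did not. Of the markers of other cell types, the leukocyte gene PTPRC lay between 3.14 and 3.51, 1 of 8 leukocyte markers (CD68) and 1 of 6 fibroblast markers (COL1A1) exceeded the median gene level in some group, and 0 of 6 endothelial markers did. The arrays also varied within groups: 63.3% of the variance within groups lay on 1 axis, with vehicle hypoxia replicate 4 at one end (score -45.8) and doxycycline hypoxia replicate 4 at the other (31.5).

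Of the 10 genes, 7 had a mean above the median gene level of 4.89 in at least 1 group. FOS, FOSB and EGR1 lay below it in all groups, at 3.82 to 4.17, 4.00 to 4.46 and 3.96 to 4.61 on the 16 arrays. Levels of different genes are not compared here, because probe sets differ in their response.

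**Figure D1:**
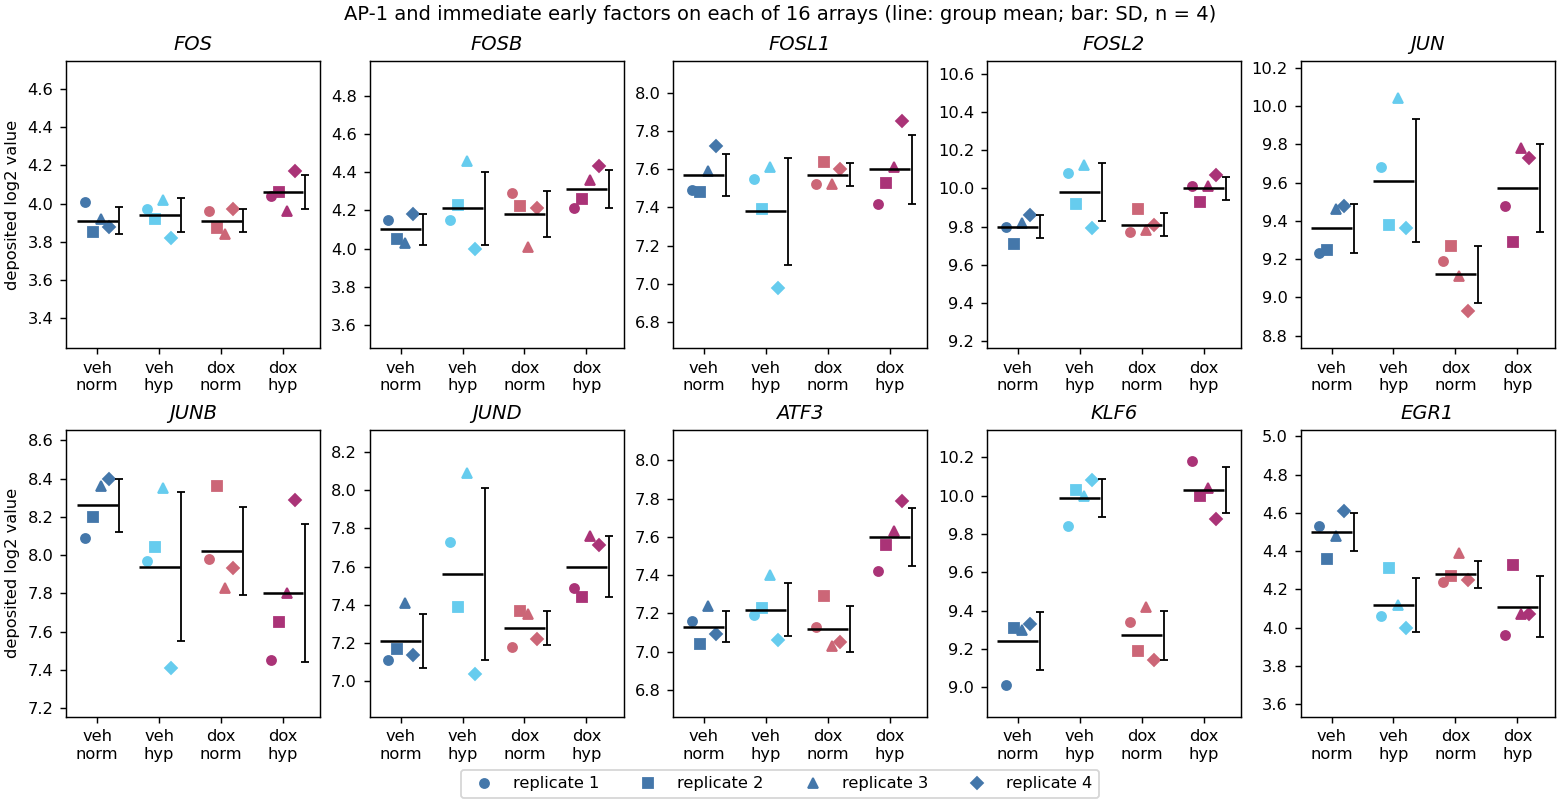
Deposited log2 value (vertical axis, 1.5 log2 units in every panel) of the 10 genes in the 4 groups (horizontal axis: vehicle or doxycycline, normoxia or hypoxia), with 1 point per array, a line at the group mean and a bar of 1 SD (n = 4). The KLF6 points lie at 9.84 or above in both hypoxia groups and at 9.42 or below in both normoxia groups, and the ATF3 points of doxycycline hypoxia, 7.42 to 7.79, lie above those of the other groups.

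The first question was how these genes differed between hypoxia and normoxia. With vehicle, 1 of the 10 was higher (KLF6) and 1 lower (EGR1), so that 2 of 10 were called against 6.91% of all 22411 genes (limma, Benjamini-Hochberg adjusted p under 0.05). With doxycycline, 2 of 10 were higher (ATF3 and KLF6), against 3.98% of all genes. Before adjustment, a limma p under 0.05 was found for 4 of the 10 with vehicle and 6 with doxycycline. The shares of all genes were 24.9% and 15.6%. The median difference of the 10 was 0.10 with vehicle and 0.17 with doxycycline, where that of all genes was -0.05 and -0.01. The hypoxia and the doxycycline comparisons share groups, so their results are not independent of each other.

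KLF6, a Krüppel-like zinc finger factor, was measured at 9.01, 9.31, 9.30 and 9.33 on the vehicle normoxia arrays (replicates 1 to 4) and at 9.84, 10.03, 10 and 10.08 on the vehicle hypoxia arrays. With doxycycline it was 9.34, 9.19, 9.42 and 9.14 in normoxia and 10.18, 10, 10.04 and 9.88 in hypoxia. Every hypoxia array lay above every normoxia array at both treatments. The log2 difference was 0.75 ± 0.10 (SE, n = 4 against 4; adjusted p = 0.000623 in limma) with vehicle and 0.76 ± 0.10 (adjusted p = 0.000655) with doxycycline. Doxycycline moved KLF6 by 0.03 in normoxia (95% interval -0.17 to 0.24) and by 0.04 in hypoxia (-0.17 to 0.24). The hypoxia difference changed by 0.01 between the treatments (interaction, -0.28 to 0.30).

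EGR1, the serum-induced zinc finger factor whose promoter holds the CArG boxes shown above, was measured at 4.53, 4.36, 4.48 and 4.61 in vehicle normoxia and at 4.06, 4.31, 4.12 and 4.00 in vehicle hypoxia. The 2 groups did not overlap, but the gap between them was small, from 4.31 to 4.36. The difference was -0.37 ± 0.08 (SE; adjusted p = 0.0133 in limma). With doxycycline the arrays read 4.24, 4.27, 4.39 and 4.25 in normoxia and 3.96, 4.33, 4.07 and 4.07 in hypoxia, which overlap, and the difference of -0.18 (95% interval -0.35 to -0.01) had an adjusted p of 0.298. The difference with vehicle was not called with only the arrays compared (adjusted p = 0.0733), or without vehicle hypoxia replicate 4 and vehicle normoxia replicate 1 together (-0.32, adjusted p = 0.0865).

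ATF3 was measured at 7.16, 7.04, 7.24 and 7.09 in vehicle normoxia, at 7.19, 7.23, 7.40 and 7.06 in vehicle hypoxia, at 7.13, 7.29, 7.03 and 7.05 in doxycycline normoxia, and at 7.42, 7.56, 7.63 and 7.79 in doxycycline hypoxia. The doxycycline hypoxia arrays lay above every array of the other 3 groups, but the gap was small, from 7.40 in vehicle hypoxia to 7.42. With doxycycline, ATF3 was higher in hypoxia by 0.48 ± 0.09 (SE; adjusted p = 0.00799 in limma), and with vehicle the difference was 0.08 (95% interval -0.11 to 0.28). In hypoxia it was higher with doxycycline by 0.38 ± 0.09 (adjusted p = 0.0239), and in normoxia the difference was -0.01 (-0.21 to 0.18). The test of the difference between these effects gave an interaction of 0.40 ± 0.13 (unadjusted p = 0.00769, adjusted p = 0.956 in limma), so the effects were not shown to differ. Over all genes the interaction was called for 0 of 22411 (0%), and 1026 genes (4.58%) had an unadjusted p under 0.05.

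The ATF3 difference with doxycycline in hypoxia kept its sign in all 27 alternatives and was called in 19 of them, with adjusted p from 0.00122 to 0.197. It lost its call without vehicle hypoxia replicate 1 (adjusted p = 0.0715) or 2 (0.0566), and without doxycycline hypoxia replicate 3 (0.0738) or 4 (0.0657). It was also not called with the replicate number as a block (0.0591), with only the arrays compared (0.152) or by the test that the methods name (0.197). Both arrays at the ends of the within-group axis belong to this comparison, and ATF3 deviated along it (r = 0.85 over the 16 arrays, given with no test). Without both arrays the difference was 0.27 (adjusted p = 0.0688), against 0.38 with all arrays.

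JUN, JUNB and JUND, the JUN family partners of FOS proteins, were called in no comparison. JUN was measured at 9.19, 9.27, 9.11 and 8.93 in doxycycline normoxia and at 9.48, 9.29, 9.78 and 9.73 in doxycycline hypoxia, without overlap. The difference was 0.45 ± 0.15 (SE; adjusted p = 0.122 in limma), and without vehicle hypoxia replicate 3, which is outside the comparison but enters the shared spread, it was 0.45 with an adjusted p of 0.0491. With vehicle the JUN difference was 0.26 (95% interval -0.06 to 0.57), from 9.23, 9.25, 9.46 and 9.48 in normoxia to 9.68, 9.38, 10.04 and 9.36 in hypoxia.

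JUND, the broadly expressed JUN protein, was measured at 7.11, 7.17, 7.41 and 7.14 in vehicle normoxia and at 7.73, 7.39, 8.09 and 7.04 in vehicle hypoxia. The hypoxia arrays spanned more than 1 log2 unit, from the lowest to the highest JUND value of the series. The difference was 0.36 (95% interval 0.00 to 0.71; adjusted p = 0.201 in limma), and without vehicle hypoxia replicate 4 it was 0.53 (adjusted p = 0.0422). With doxycycline it was 0.32 (-0.03 to 0.68; adjusted p = 0.387), although the arrays, 7.18 to 7.37 in normoxia and 7.44 to 7.76 in hypoxia, did not overlap. JUNB, a weaker activator than JUN, had negative hypoxia differences of -0.32 (-0.73 to 0.10) with vehicle and -0.23 (-0.64 to 0.19) with doxycycline. Its arrays ran from 7.41 to 8.35 in vehicle hypoxia and from 7.45 to 8.29 in doxycycline hypoxia.

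Of the FOS family, FOSL2 had differences in hypoxia of 0.18 with vehicle (adjusted p = 0.162 in limma) and 0.19 with doxycycline (adjusted p = 0.222). Its values were 9.77 to 9.89 in doxycycline normoxia and 9.93 to 10.07 in doxycycline hypoxia, which do not overlap. FOSL1, which encodes Fra-1, was at -0.19 (95% interval -0.45 to 0.07) with vehicle and 0.03 (-0.23 to 0.29) with doxycycline. FOS and FOSB, below the median gene level in all groups, had hypoxia differences between 0.02 and 0.15. The groups of 5 genes (FOSL2, JUN, JUND, ATF3 and KLF6) did not overlap between hypoxia and normoxia with doxycycline, against 12.9% of all genes, and those of 2 (KLF6 and EGR1) did not overlap with vehicle, against 13.8%. Wherever groups did not overlap, the exact two-sided permutation test gave 0.0286, the smallest p that 70 arrangements of 4 against 4 arrays allow, over 40 such tests.

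**Figure D2:**
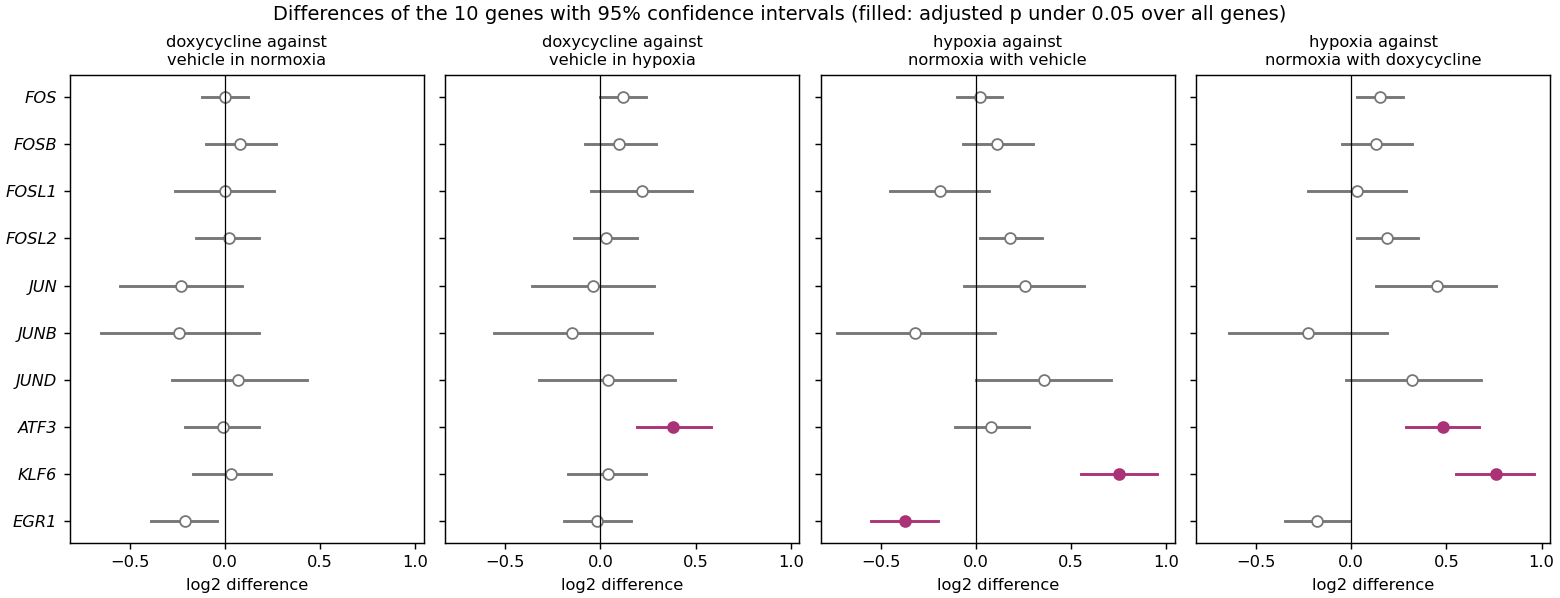
Log2 difference (horizontal axis) of each of the 10 genes (vertical axis) in the 4 comparisons, with its 95% confidence interval from limma, filled where the adjusted p over all genes was under 0.05. KLF6 is filled in both hypoxia panels at 0.75 and 0.76, EGR1 in the vehicle panel at -0.37, and ATF3 in the doxycycline hypoxia panel at 0.38 and the hypoxia with doxycycline panel at 0.48.

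The second question was how doxycycline, and with it the loss of DGAT1 and DGAT2, changed these genes. In normoxia 0 of the 10 were called, against 9.08% of all genes. An unadjusted limma p under 0.05 was found for 1 of the 10 (EGR1), against 24.9% of all genes. The EGR1 difference was -0.21 (95% interval -0.39 to -0.04; adjusted p = 0.119 in limma), and the arrays of both groups overlapped. In hypoxia 1 of 10 was called, ATF3, which was higher with doxycycline, against 4.66% of all genes. There 2 of the 10 had an unadjusted limma p under 0.05, against 17.2% of all genes. The groups of 0 and 1 of the 10 did not overlap, against 19.9% and 9.01% of all genes. The median difference of the 10 was 0.00 in normoxia and 0.04 in hypoxia, against -0.02 and 0.00 for all genes.

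The intervals show the range of sizes for each gene and are not adjusted for the number of genes tested. In normoxia the largest differences with doxycycline were those of JUNB, -0.24 (95% interval -0.65 to 0.18), and JUN, -0.23 (-0.55 to 0.09). In hypoxia FOSL1 was at 0.22 (-0.05 to 0.48), JUNB at -0.15 (-0.56 to 0.27) and FOS at 0.12 (0.00 to 0.24). For FOS the limma p was 0.0433 before adjustment and 0.27 after it. JUN read 9.23 to 9.48 in vehicle normoxia and 8.93 to 9.27 in doxycycline normoxia, so that its arrays overlapped only narrowly. With vehicle hypoxia replicate 4 and doxycycline hypoxia replicate 4 left out together, JUNB was called in hypoxia at -0.49 (adjusted p = 0.0483), where all arrays gave -0.15.

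Most of these genes deviated from their group means together, from array to array. Vehicle hypoxia replicate 4 was low in 9 of the 10, with JUNB at 7.41 against 8.12 for the mean of the other 3 arrays, JUND at 7.04 against 7.74 and FOSL1 at 6.98 against 7.52, while KLF6 was higher there (10.08 against 9.96). Doxycycline hypoxia replicate 4 was the reverse for JUNB (8.29 against 7.63) and FOSL1 (7.85 against 7.52), with KLF6 at 9.88 against 10.07. Over the 16 arrays, including both named above, deviations from the group mean correlated at r = 0.91 for FOSL1 and JUNB and 0.90 for JUNB and ATF3. They correlated at 0.87 for FOSL1 and FOSL2, and at 0.85 for JUN and JUND. The lowest value was -0.65, for FOS and KLF6. The deviations of 8 of the genes had an r of 0.58 to 0.85 with the axis of all genes, KLF6 was at -0.66 and EGR1 at 0.18. These correlations are descriptions with no test, and the part of the axis in the group differences was measured only by leaving out its end arrays.

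**Figure D3:**
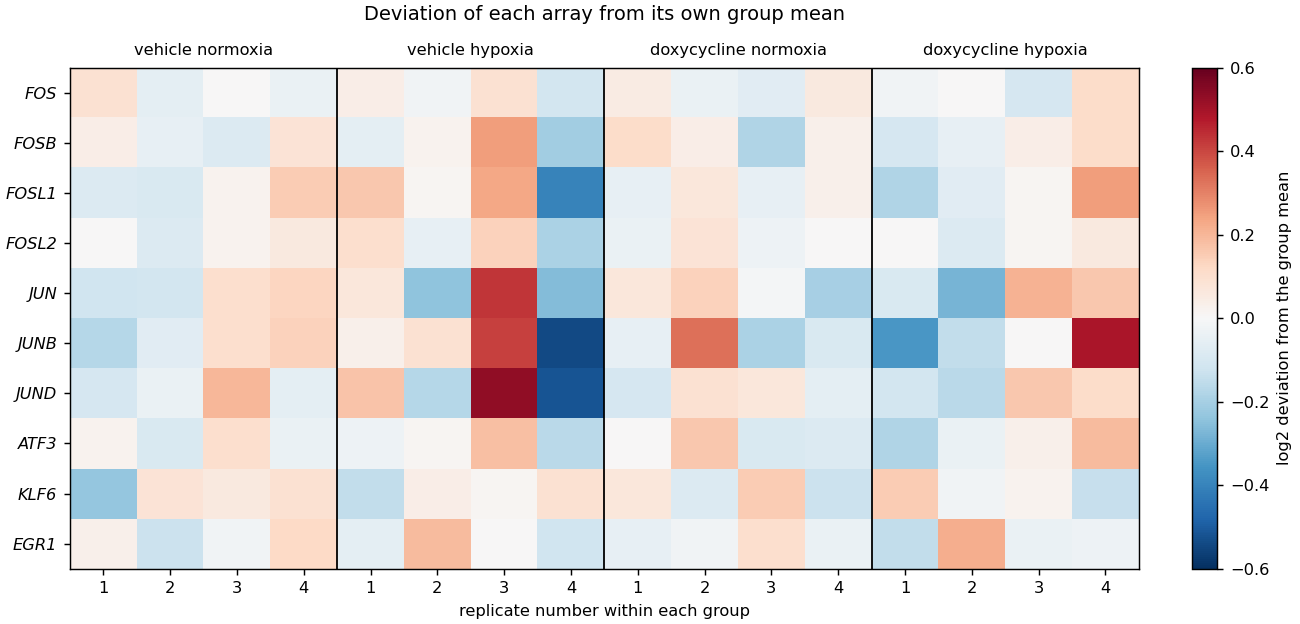
Log2 deviation of each array from its own group mean (colour, from -0.6 to 0.6) for the 10 genes (rows) and the 16 arrays (columns, by group and replicate number). Vehicle hypoxia replicate 4 is blue in 9 of 10 rows, most in JUNB and JUND, and doxycycline hypoxia replicate 4 is red in JUNB, whose value there was 8.29 against 7.63 on the other 3 arrays.

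Other basic leucine zipper proteins can pair with FOS or JUN proteins. Of 12 such genes listed, 10 were measured, and 1 was called, MAF. It was higher in hypoxia with vehicle by 0.38 ± 0.09 (SE, adjusted p = 0.0173 in limma), where 6.91% of all genes were called. A count of 1 lies near this share and is not read as a result about the group. With doxycycline in normoxia, with doxycycline in hypoxia and in hypoxia with doxycycline, 0 of 10 were called by limma, against 9.08%, 4.66% and 3.98% of all genes. Between 0 and 1 had an unadjusted limma p under 0.05 there, against 15.6% to 24.9% of all genes.

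Of 26 other immediate early genes 24 were measured, and 3 of the 24 were called with doxycycline in normoxia and 1 in hypoxia (9.08% and 4.66% of all genes), and 3 in hypoxia with vehicle and 2 with doxycycline (6.91% and 3.98%). Counts this small lie near the shares of all genes and are not read as a result about the group, and over the alternatives the count for hypoxia with vehicle ran from 0 to 3. With doxycycline in normoxia RHOB, a small GTPase, rose by 0.59 ± 0.17 (adjusted p = 0.0386 in limma), while MYC fell by 0.47 ± 0.13 (adjusted p = 0.0303) and ZFP36L1, a decay factor for AU-rich mRNAs, fell by 0.49 ± 0.06 (adjusted p = 0.000173). ZFP36L1 also fell by 0.50 ± 0.06 with doxycycline in hypoxia (adjusted p = 0.000246), the 1 call of 24 there. It was 10.66 to 10.80 on the vehicle arrays and 10.17 to 10.35 on the doxycycline arrays, without overlap at either oxygen level. In hypoxia with vehicle, KLF10 fell by 0.42, GADD45B by 0.39 and IER2 by 0.36 (adjusted p = 0.0176, 0.024 and 0.0349), with 0 of 24 higher. In hypoxia with doxycycline, 2 were higher, PPP1R15A, which restores translation after stress, by 0.68 (adjusted p = 0.0206) and CCN1 by 0.41 (adjusted p = 0.0464), and 0 of 24 were lower. PPP1R15A arrays were 6.19 to 6.32 in doxycycline normoxia and 6.64 to 7.22 in doxycycline hypoxia.

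Of the kinases and the SRF machinery that induce these genes, 18 of 23 were measured, and 3 were called with doxycycline in normoxia and 3 in hypoxia with vehicle, against 9.08% and 6.91% of all genes. With doxycycline in normoxia MAP2K6, a p38 kinase activator, was higher by 0.64 ± 0.10 (adjusted p = 0.000935 in limma), and SRF and MAPK8, the gene of the JNK1 kinase, fell by 0.37 (adjusted p = 0.0246) and 0.31 (adjusted p = 0.039). In hypoxia with vehicle MAP2K6 was higher by 0.48 and MRTFB, an SRF coactivator, by 0.43, and MAPK12 fell by 0.23 (adjusted p = 0.0105, 0.0345 and 0.0319). With doxycycline in hypoxia and in hypoxia with doxycycline 0 of 18 were called, against 4.66% and 3.98% of all genes. In each, 2 genes of 18 had an unadjusted limma p under 0.05, against 17.2% and 15.6% of all genes.

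Genes that feed back on MAP kinases, such as the dual specificity phosphatases, were all measured, 15 of 15. Between 0 and 2 were called in each comparison, against 3.98% to 9.08% of all genes. DUSP4 rose with doxycycline by 0.28 in normoxia (adjusted p = 0.0439 in limma) and by 0.48 in hypoxia (adjusted p = 0.00282). In hypoxia DUSP16 rose with doxycycline by 0.35 (adjusted p = 0.0114), and in normoxia DUSP9 fell by 0.35 (adjusted p = 0.00346). With doxycycline, DUSP16 and DUSP10 were higher in hypoxia by 0.36 and 0.28 (adjusted p = 0.0131 and 0.0485). With vehicle 0 of 15 were called between hypoxia and normoxia, where 3 had an unadjusted limma p under 0.05, against 24.9% of all genes.

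Of 20 genes known as AP-1 targets 17 were measured. Of these 6 were higher and 2 lower with doxycycline in normoxia, and 7 higher and 1 lower in hypoxia, against 9.08% and 4.66% of all genes called. Their median difference was 0.24 and 0.28 where all genes were at -0.02 and 0.00. Many of these genes are also targets of other factors such as NF-κB. The list was chosen with earlier results of these data known, so its counts and medians in any comparison are not independent evidence about AP-1. PLAU, the urokinase protease, was measured at 5.79, 5.68, 5.81 and 5.78 in vehicle normoxia and at 6.49, 6.65, 6.58 and 6.49 in doxycycline normoxia, a difference of 0.79 ± 0.08 (SE; adjusted p = 2.3e-05 in limma). In hypoxia it went from 5.29, 5.37, 5.44 and 5.06 to 5.93, 5.97, 6.07 and 6.15, a difference of 0.74 ± 0.08 (adjusted p = 5.83e-05). Each doxycycline array was thus above every vehicle array at the same oxygen level.

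In normoxia IL6 rose by 0.55 ± 0.08 (adjusted p = 0.000747 in limma) and the collagenase gene MMP1 by 0.51 ± 0.08 (adjusted p = 0.000786). In hypoxia PLAUR, the urokinase receptor, rose by 0.76 ± 0.12 (adjusted p = 0.00118), and HBEGF, a ligand of the EGF receptor, by 0.72 ± 0.12 (adjusted p = 0.00295). MMP1 stayed low on the scale, at 3.29 to 3.59 with vehicle and 3.72 to 4.12 with doxycycline. EZR, which links the membrane to actin, was lower with doxycycline in both settings, by 0.62 in normoxia (adjusted p = 0.000315) and 0.41 in hypoxia (adjusted p = 0.0103), and CD44 fell by 0.27 in normoxia (adjusted p = 0.0119). The AP-1 factors of the same comparisons are the 0 and 1 genes called above.

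**Figure D4:**
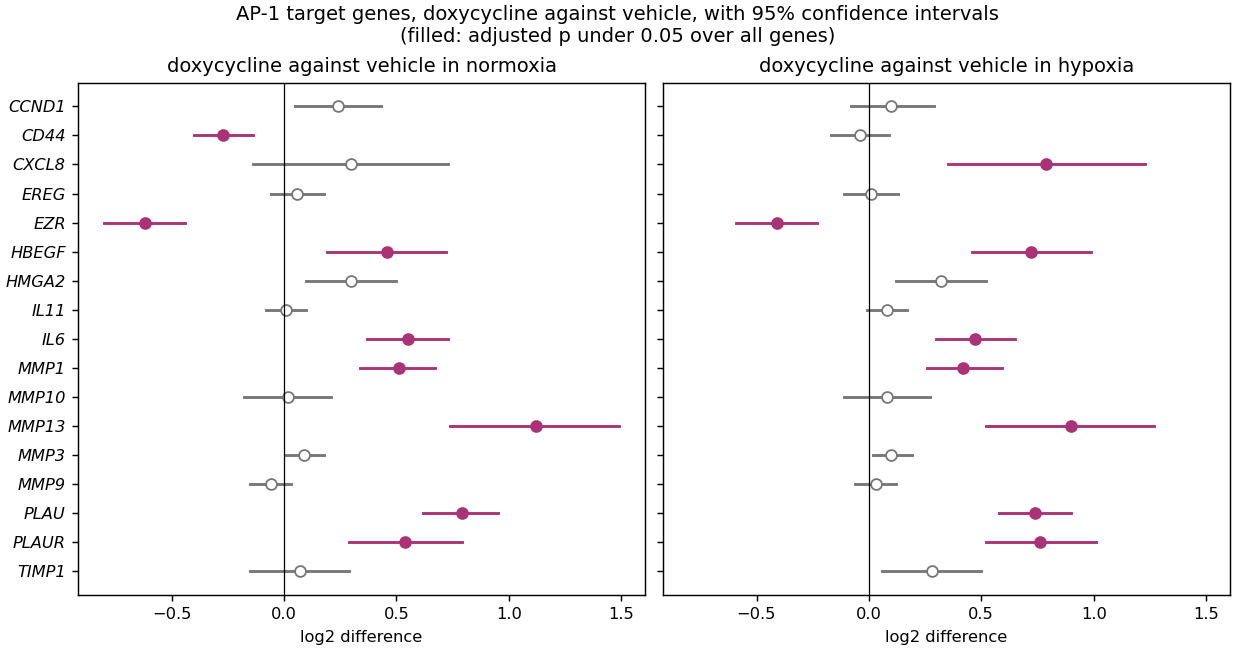
Log2 difference (horizontal axis) between doxycycline and vehicle of the 17 measured AP-1 target genes (vertical axis) in normoxia and in hypoxia, with 95% confidence intervals, filled where the adjusted p over all genes was under 0.05. PLAU, PLAUR, HBEGF, IL6, MMP1 and MMP13 are filled to the right of 0 in both panels, CXCL8 in the hypoxia panel, and EZR to the left in both.

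Between hypoxia and normoxia 4 of the 17 targets were called with vehicle and 4 with doxycycline, against 6.91% and 3.98% of all genes. With vehicle 1 of 17 was higher (IL6, by 0.56 ± 0.08, adjusted p = 0.0015 in limma) and 3 were lower, PLAU by 0.48, the protease inhibitor TIMP1 by 0.42 and PLAUR by 0.42 (adjusted p = 0.00258, 0.0238 and 0.0423). With doxycycline 3 were higher, the chemokine CXCL8 by 1.11 ± 0.21, HBEGF by 0.57 and IL6 by 0.49 (adjusted p = 0.00703, 0.018 and 0.00448), and PLAU fell by 0.52 (adjusted p = 0.00196). The median difference of the 17 was -0.03 with vehicle and 0.02 with doxycycline. PLAU thus had the opposite sign with hypoxia to the one it had with doxycycline, and IL6 the same sign.

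The genes most like the 3 called factors over the 16 arrays were sought among 11506 genes (11507 for EGR1) with a group mean above the median gene level. For KLF6 they were SLC38A2, an amino acid transporter (r = 0.956), LOX, a lysyl oxidase (0.946), and MATCAP2 (0.924). For ATF3 they were GPR176 (0.937), TSPAN5 (0.934) and SUN2 (0.933). For EGR1 they were ZFPL1 (0.896), GAPDH (0.888) and ACTMAP (0.885). These are Pearson correlations over arrays that share the group differences, given with no test.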

How the data were processed

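Total RNA from 4 arrays in each of 4 groups was made into biotin-labelled cDNA by the study and hybridised to whole-transcript human arrays. The authors summarised the scans by RMA, which corrects background, equalises the distributions of arrays and condenses probes, and deposited 1 table on the log2 scale. The submitters' processing notes name RMA and the Transcriptome Analysis Console. For versions, build and scan dates the sources used here give nothing. Across 16 arrays there were 70523 probe sets, with 0 columns of other samples, 590 probe sets above 16 and array medians of 3.91 to 4.11. The methods name an array type only for other samples of the study, and the platform annotation of that type gave the gene names. It held a single symbol for 23781 probe sets, more than 1 for 1543 and no symbol for 45199. Only single-symbol probe sets were used, the brightest per gene, which left 22411 genes. Depth has no meaning for arrays, so precision rests on their number.

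Groups came from the array titles. limma 3.58.1 in R 4.3.3 was fitted to all 16 arrays with 4 group means and an intensity trend, tested two-sided with Benjamini-Hochberg adjustment over all genes at 0.05, and tested on simulated data beforehand. Exact permutation tests were added for the 10 genes. Since a t-test or ANOVA is what the methods name, the t-test was an alternative. The 10 genes and the other gene lists were chosen with earlier results of these data known. From each other list the text names up to 3 genes per direction with the smallest adjusted p among those called in a comparison, and, for each called factor, the 3 genes most correlated with it. A plot shows every measured AP-1 target. Marker and DGAT levels checked the labels. Alternatives were a block for the replicate number, omission of each array, pairs of arrays left out, and only the arrays compared. Others were a filter on dim genes, the mean of probe sets, 2 other scalings, no intensity trend, array weights and the t-test. The first pair was vehicle hypoxia replicate 4 and doxycycline hypoxia replicate 4, the ends of the axis. The second was vehicle hypoxia replicate 4 and vehicle normoxia replicate 1, whose score of 21.4 was not at an end. Promoter windows came from RefSeq tables (GRCh38.p14).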

Additional observations from a re-analysis of the deposited data

Results flagged for a closer look

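Vehicle normoxia replicate 1 had a KLF6 value of 9.01, away from the other 3 arrays of its group at 9.30 to 9.33, a gap of 0.912 of the whole range of the group. It was the 1 array so far from its group among 48 sets of 4 arrays looked at (chance gives about 1 in 20). Without this array the KLF6 difference between hypoxia and normoxia with vehicle was 0.67 (limma adjusted p = 0.002), and it was called in 26 of 27 alternatives, all but the t-test.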

How the results depend on the processing

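Of 1315 differences of the 10 genes under the alternatives, 1292 kept their side of the threshold, 13 lost a call, 10 gained one and 0 called differences changed sign, while 106 that were called neither way changed sign. Arrays with the same replicate number did not deviate alike as a rule (8 of 24 correlations between same-numbered deviations were over 0.1, range -0.83 to 0.54). Most of the variance within groups lay on 1 axis, so this check could miss a smaller effect that same-numbered arrays share. With the replicate block the ATF3 difference with doxycycline in hypoxia had an adjusted p of 0.0591, leaving 0 of 10 called there, the calls of all genes went from 1549 to 853 and from 893 to 479 for hypoxia with vehicle and with doxycycline, and no other call of the 10 genes changed.

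The number of the 10 genes called with doxycycline in normoxia was 1 with array weights (EGR1) in place of 0. With doxycycline in hypoxia it was 0 with the replicate block, with only the arrays compared and with the t-test, and 0 to 1 with arrays left out in turn. In hypoxia with vehicle it was 1 when vehicle hypoxia replicate 4 and vehicle normoxia replicate 1 were left out together, with only the arrays compared or with the filter on dim genes (which removes EGR1), 4 with array weights (FOSL2, JUND, KLF6 and EGR1), and 0 with the t-test (t-test adjusted p of 0.0713 for KLF6 and 0.137 for EGR1). In hypoxia with doxycycline it was 5 with array weights (FOSL2, JUN, JUND, ATF3 and KLF6) and 1 with the t-test (KLF6, with ATF3 at 0.0569). The cause of these changes was not tested.

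The calls of all genes ranged over the alternatives from 1220 to 4777 for doxycycline in normoxia (2035 in the main analysis), from 198 to 5089 in hypoxia (1045), from 11 to 4610 for hypoxia with vehicle (1549) and from 426 to 3366 with doxycycline (893), the highest with array weights in each. The t-test called 198 genes for doxycycline in hypoxia and 11 for hypoxia with vehicle, and only the arrays compared gave 285 and 120. Over 18 alternatives the calls among AP-1 targets were 7 to 9 of 17 with doxycycline at both oxygen levels, 2 to 5 in hypoxia with vehicle and 3 to 5 with doxycycline. In the order doxycycline in normoxia, doxycycline in hypoxia, hypoxia with vehicle and hypoxia with doxycycline, the calls were 1 to 3, 1 to 2, 0 to 3 and 0 to 4 for other immediate early genes, 1 to 4, 0 to 1, 0 to 5 and 0 to 1 for the kinases and SRF machinery, and 1 to 4, 1 to 6, 0 to 2 and 0 to 3 for the MAP kinase feedback genes. For the leucine zipper partners they were 0 with doxycycline and 0 to 1 with hypoxia. FOS, FOSB and EGR1, lay below the median gene level.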
